A study of Homo sapiens with 6 samples.

Results

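The genes described here are 10 members of the insulin and insulin-like growth factor (IGF) family: the receptor genes IGF1R and INSR, the receptor substrates IRS1 and IRS2, the IGF binding protein genes IGFBP2, IGFBP3, IGFBP4, IGFBP6 and IGFBP7, and the IGF-like gene IGFL1. They are 10 of the 29176 genes in the deposited expression table. They were chosen by name from that family with the counts of both groups already known, so their differences between the groups are given as a description and support nothing beyond themselves. RNA sequencing was done on HaCaT cells, a single immortalized line of human keratinocytes. In the 3 samples of the si-eIF4E+M5 group the cells had received a small interfering RNA against eIF4E, and in the 3 samples of the si-NC+M5 group a control small interfering RNA. Both groups carried the M5 stimulus, which the series title gives as the means of making a psoriasis model in culture, and RNA was taken after 48 hours in both. No unstimulated sample was analysed here.

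Insulin and the IGFs bind the related receptor tyrosine kinases encoded by INSR and IGF1R. The activated receptors phosphorylate the docking proteins IRS1 and IRS2, which recruit PI3-kinase and switch on AKT, and AKT in turn holds FOXO transcription factors out of the nucleus and activates mTORC1. One output of mTORC1 is the phosphorylation of the 4E-BP proteins, which otherwise bind and block eIF4E, so the pathway lies upstream of the factor that was knocked down. IGF binding proteins are secreted and hold IGFs in the extracellular space. In skin, keratinocytes carry IGF1R and respond to IGF-I that dermal fibroblasts release.

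The libraries held 71044961 to 74246501 counts. EIF4E itself was at 21.0, 18.4 and 23.5 CPM (counts scaled to library size by the trimmed mean of M-values, TMM) in si-eIF4E+M5 replicates 1 to 3, against 50.9, 48.2 and 51.2 CPM in si-NC+M5 replicates 1 to 3, with no overlap of the groups. Its log2 fold change was -1.25 ± 0.09 (SE), called in the edgeR quasi-likelihood fit (adjusted p = 7.2e-05), and the two-sided exact permutation test over samples gave p = 0.1, the smallest that 3 against 3 samples allow. All 10 keratinocyte markers had a mean of at least 1 FPKM (fragments per length and library size), and their summed level was 3575 to 3828 FPKM in si-eIF4E+M5 and 3599 to 3684 FPKM in si-NC+M5; KRT5 was called higher and KRT17 lower. Of 9 fibroblast markers measured, 0 reached 1 FPKM, and their sum was 0.792 to 1.15 FPKM in si-eIF4E+M5 against 0.371 to 0.506 FPKM in si-NC+M5; 2 of them, COL1A1 and COL3A1, were called higher. Of the endothelial markers only EGFL7 and of the leukocyte markers only CD68 reached 1 FPKM, and no melanocyte marker did. CD68 was called higher, at a mean of 7.78 FPKM in si-eIF4E+M5 against 5.32 FPKM in si-NC+M5. The summed leukocyte markers did not overlap, at 7.56 to 9.34 FPKM in si-eIF4E+M5 against 5.44 to 6.55 FPKM in si-NC+M5. CD68 made up most of that sum, and no other leukocyte marker was called. The endothelial and melanocyte sums overlapped between the groups. The part of these marker levels in the results below was not tested. The labels do not say whether replicates came from separate cultures. The p-values set the difference between groups against the variation within them, and that variation may be only technical.

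IGFL1, IGFBP3, IRS2 and IRS1 fell in the knockdown cells, to 33.2%, 49.1%, 58.3% and 78.8% of their si-NC+M5 level. The receptor genes were split: IGF1R stood higher and INSR lower in each knockdown library than in any control library, and neither was called. IGFBP4 was higher without a call, and the abundant IGFBP6 and IGFBP7 overlapped between the groups. Of the 10 genes 9 had enough counts to be tested; 4 were called lower and 0 higher by edgeR at an adjusted p of 0.05 over all 18022 tested genes. Over all tested genes 15.8% were called, 7.44% higher and 8.4% lower. The groups did not overlap for 7 of the 9 genes, 2 higher and 5 lower, while 33.8% of all tested genes did not overlap, 16.5% higher and 17.4% lower. Nothing is read from these shares, since the genes were chosen with the same values known. At an unadjusted p under 0.05 the counts were 2 higher and 5 lower, and DESeq2 called 1 higher and 4 lower. The shares of all tested genes at these settings are not given, so nothing is read from these counts either. In bulk RNA, fewer cells that express a gene and less RNA per cell cannot be told apart.

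**Figure D1:**
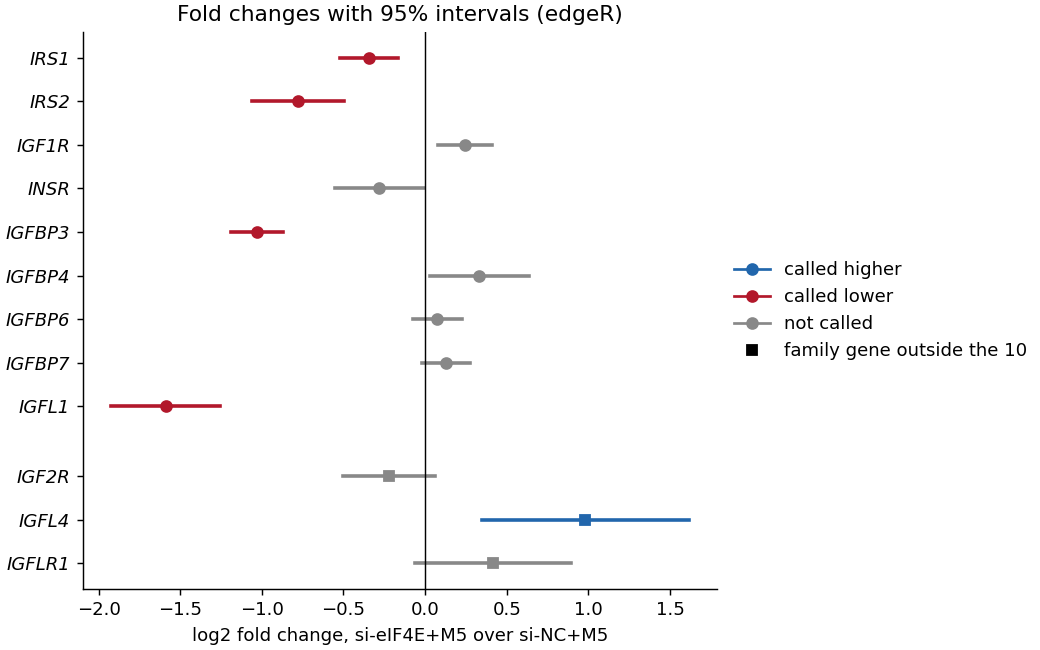
Log2 fold change between groups, positive where si-eIF4E+M5 is higher (horizontal axis), with its 95% interval from edgeR for 9 tested family genes (circles) and 3 further family genes (squares); colour gives the call. IGFL1 lies at -1.59 and IGFBP3 at -1.03, while IGFBP6 and IGFBP7 lie close to 0.

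The family spans a wide range of levels, which were compared between genes in FPKM, a value per length. In si-eIF4E+M5 the order was IGFBP7 at 54.3 ± 5.19 FPKM (SD, n = 3), IGFBP6 at 40.7 ± 1.98, IGFBP3 at 30.1 ± 0.966, IGFL1 at 16.3 ± 2.24, IGF1R at 9.35 ± 0.523, IGFBP4 at 2.91 ± 0.119, IRS1 at 1.94 ± 0.108, IRS2 at 1.6 ± 0.113 and INSR at 0.534 ± 0.0251 FPKM, and the ranges of neighbours in this order did not overlap over the 3 libraries. In si-NC+M5 IGFBP3 led at 60.04 ± 4.18 FPKM, followed by IGFBP7 at 48.6 ± 0.711, IGFL1 at 48.1 ± 9.21, IGFBP6 at 37.9 ± 1.03 and IGF1R at 7.73 ± 0.440 FPKM. IRS2 at 2.69 ± 0.469, IRS1 at 2.41 ± 0.0903, IGFBP4 at 2.26 ± 0.192 and INSR at 0.637 ± 0.0188 FPKM came below them. The control ranges of IGFL1 overlapped those of IGFBP7 and IGFBP3, and the ranges of IRS1, IRS2 and IGFBP4 overlapped one another, so the order of these genes over the control libraries is not set. Within each single library IGFBP3 was the first of the 9 in si-NC+M5, and it was the third in each si-eIF4E+M5 library. Among all tested genes, IGFBP7 had a higher mean FPKM than 96.1% in si-eIF4E+M5 and 95.6% in si-NC+M5, whereas INSR stood above 27.0% and 29.9%.

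**Figure D2:**
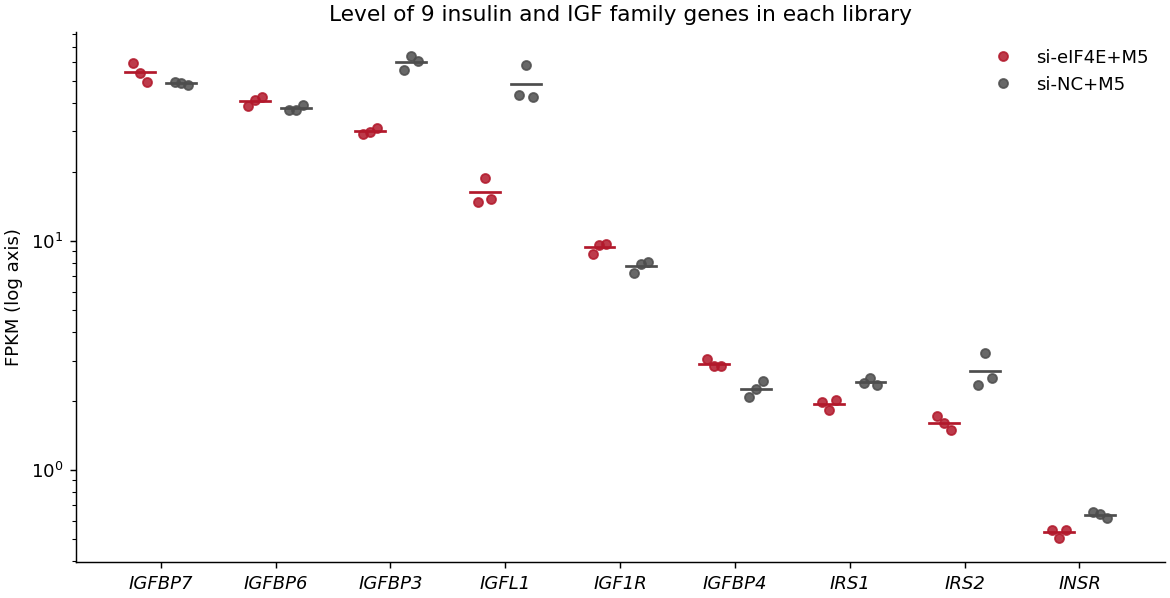
FPKM (vertical log axis) of 9 family genes in each library; red points are the 3 si-eIF4E+M5 libraries, grey points the 3 si-NC+M5 libraries, and bars their means. IGFL1, IGFBP3 and IRS2 show a clear gap between the groups, and INSR is the lowest of the 9 in both.

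The receptor genes differed in opposite directions, neither of them called. IGF1R (ENSG00000140443, plus strand of chr15:98648539-98964530, GRCh38) encodes the IGF-I receptor and was at 123, 141 and 142 CPM in si-eIF4E+M5, against 106, 118 and 119 CPM in si-NC+M5. The lowest knockdown library, replicate 1, lay just above the highest control library. The log2 fold change was 0.25 ± 0.07 (SE), with a 95% interval of 0.08 to 0.41, and it was not called, though it was called in 9 of 15 other settings, among them DESeq2 and the fit without si-eIF4E+M5 replicate 1. INSR (ENSG00000171105, minus strand of chr19:7112255-7294414) encodes the insulin receptor and was at 6.04, 5.79 and 6.27 CPM in si-eIF4E+M5, against 7.42, 7.45 and 7.12 CPM in si-NC+M5. Every knockdown library was below every control library. The log2 fold change of INSR was -0.28 ± 0.12, with a 95% interval of -0.55 to -0.01, and it was called in 0 of 14 other settings. INSR varied little between replicates: its spread within groups was smaller than that of all but 1.10% of the 1000 tested genes nearest to it in level. The ratio of IGF1R to INSR in FPKM was 16.0, 19.1 and 17.7 in si-eIF4E+M5 and 11.1, 12.3 and 13.1 in si-NC+M5. So transcripts for the IGF receptor outnumbered those for the insulin receptor in every library, per length, and the ratio was higher in each knockdown library than in any control library.

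Both substrates fell, IRS2 more than IRS1. IRS2 (ENSG00000185950, minus strand of chr13:109752695-109786583), a docking protein whose gene FOXO factors are known to activate, was at 1.72, 1.599 and 1.49 FPKM in si-eIF4E+M5, against 2.35, 3.23 and 2.51 FPKM in si-NC+M5, from 936 to 1061 counts against 1423 to 1964 counts. The groups did not overlap, and control replicate 2 stood well above the other controls. The log2 fold change was -0.78 ± 0.13 (95% interval -1.06 to -0.50), and without control replicate 2 it was -0.62 and still called. IRS1 (ENSG00000169047, minus strand of chr2:226731317-226799759), the substrate named for insulin signalling in many tissues, was at 19.9, 19.1 and 21.2 CPM in si-eIF4E+M5, against 24.8, 26.7 and 24.7 CPM in si-NC+M5. Knockdown libraries were again all below the controls, by a smaller step. The log2 fold change of IRS1 was -0.34 ± 0.08 (95% interval -0.52 to -0.17), and its call was lost in 5 of 14 other settings, on log2(FPKM + 1), on log2(FPKM + 0.1) and without si-eIF4E+M5 replicate 1, si-eIF4E+M5 replicate 2 or si-NC+M5 replicate 2. Together the 2 substrates summed to 3.54 ± 0.139 FPKM in si-eIF4E+M5 and 5.10 ± 0.552 FPKM in si-NC+M5. The ratio of IRS1 to IRS2 in FPKM was 1.15, 1.14 and 1.36 in knockdown libraries and 1.02, 0.778 and 0.932 in control libraries.

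IGFBP3 was the binding protein gene that fell. IGFBP3 (ENSG00000146674, minus strand of chr7:45912245-45921274) encodes the main carrier of IGFs in blood, which also restrains cell growth in many settings. It was at 135, 143.5 and 149 CPM in si-eIF4E+M5, against 265, 311 and 295 CPM in si-NC+M5. The groups lay far apart, with the highest knockdown library well under the lowest control library. The log2 fold change was -1.03 ± 0.07 (95% interval -1.19 to -0.87), from 10109 to 10918 counts in si-eIF4E+M5 and 18883 to 21754 counts in si-NC+M5, and it was called in 15 of 15 other settings. An absolute log2 fold change larger than this was seen in 5.09% of all tested genes.

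IGFBP6, IGFBP7 and IGFBP4 were not called. IGFBP6 (ENSG00000167779, chr12:53097436-53102345), which prefers IGF-II, was at 52.5, 58.0 and 60.0 CPM in si-eIF4E+M5, against 52.6, 53.4 and 55.8 CPM in si-NC+M5, and its log2 fold change was 0.08 ± 0.07 (95% interval -0.07 to 0.22). IGFBP7 (ENSG00000163453, chr4:57030773-57110385), a matrix-associated relative with low affinity for IGFs, was at 116, 110 and 99.6 CPM in si-eIF4E+M5, against 99.5, 100.1 and 98.0 CPM in si-NC+M5, with a log2 fold change of 0.13 ± 0.07 (95% interval -0.02 to 0.28). The knockdown libraries spread over more of the range than the controls for both genes, and the groups overlapped. The annotated span of IGFBP7 overlaps POLR2B on the other strand, and the use of strand in counting is not given in the sources used here, so part of the reads of each could belong to the other; POLR2B was at 124 ± 3.47 CPM in si-eIF4E+M5 and 133 ± 5.17 CPM in si-NC+M5. IGFBP4 (ENSG00000141753, chr17:40443450-40457725), which is cut and inactivated by the protease PAPP-A, was at 6.78, 6.60 and 6.56 CPM in si-eIF4E+M5, against 4.78, 5.29 and 5.75 CPM in si-NC+M5. The groups did not overlap, and the log2 fold change of 0.33 ± 0.13 (95% interval 0.03 to 0.63) was called in 0 of 14 other settings. IGFBP2 (ENSG00000115457, chr2:216632828-216664436) was hardly detected, with 0, 6 and 7 counts in si-eIF4E+M5 and 0, 8 and 0 counts in si-NC+M5, and was not tested. A count of 0 allows up to 0.0401 to 0.0429 CPM in these libraries, from counting error alone.

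The make-up of the binding protein transcripts differed accordingly. IGFBP3 held 22.4%, 23.4% and 24.8% of the summed FPKM of the 5 binding protein genes in si-eIF4E+M5, against 38.5%, 42.0% and 40.5% in si-NC+M5. IGFBP7 held 45.7%, 42.3% and 39.2% in si-eIF4E+M5, against 34.2%, 32.0% and 31.9% in si-NC+M5, and IGFBP6 held 31.8 ± 2.13% in si-eIF4E+M5 and 25.5 ± 0.844% in si-NC+M5. The largest share thus belonged to IGFBP7 in each knockdown library and to IGFBP3 in each control library. The summed level was 128 ± 2.38 FPKM in si-eIF4E+M5 and 149 ± 3.99 FPKM in si-NC+M5, and shares of a sum are tied to each other.

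**Figure D3:**
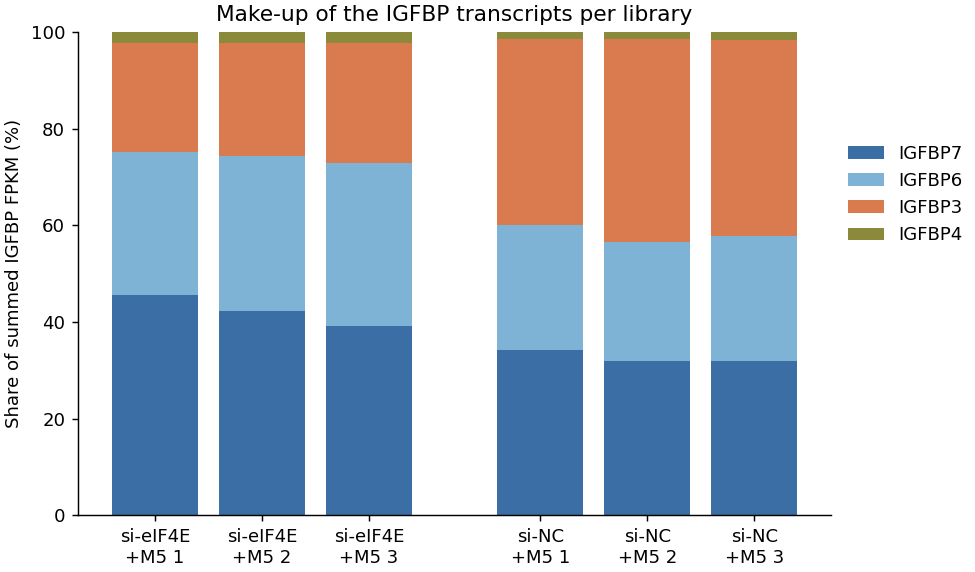
Share of each binding protein gene in the summed FPKM of the 5 IGFBP genes (vertical axis, percent) in the 3 si-eIF4E+M5 libraries (left) and the 3 si-NC+M5 libraries (right); IGFBP2 is too low to show. The IGFBP3 part is between 22.4% and 24.8% in knockdown libraries and between 38.5% and 42.0% in control libraries.

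IGFL1 (ENSG00000188293, plus strand of chr19:46229742-46231243) showed the largest absolute fold change of the 9. It encodes a small secreted protein with an IGF-like arrangement of cysteines that binds the receptor IGFLR1 rather than IGF1R, and its expression is known to be raised in psoriatic skin. It was at 11.7, 15.5 and 12.4 CPM in si-eIF4E+M5, against 35.3, 48.8 and 34.9 CPM in si-NC+M5, from 874, 1137 and 910 counts against 2510, 3413 and 2558 counts. Replicate 2 was the highest library in both groups, and the highest knockdown library stayed far below the lowest control. The log2 fold change was -1.59 ± 0.15 (95% interval -1.92 to -1.26), a larger absolute change than in all but 1.56% of tested genes, and it was called in 15 of 15 other settings. Its spread within groups was larger than that of 97.3% of the 1000 tested genes nearest in level. In si-NC+M5 replicate 2, IGFL1, IRS2, IGFBP3, IRS1 and INSR each had their highest CPM of all libraries. Without that library IGFL1 was at -1.41, IRS2 at -0.62 and IGFBP3 at -0.98, each still called, while IRS1 was at -0.31 and lost its call.

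IGFL1 lies in a cluster with relatives on chromosome 19, which were looked at after their values were seen. The pseudogene IGFL1P1 (chr19:46196238-46197323), annotated as a pseudogene of IGFL1, was at 39.0, 23.6 and 31.1 CPM in si-eIF4E+M5, against 34.3, 24.2 and 28.03 CPM in si-NC+M5. The groups overlapped, and replicate 1 was the highest in both. The direction of its log2 fold change of 0.11 ± 0.17, not called (adjusted p = 0.73 in edgeR), turned without si-eIF4E+M5 replicate 1. Counting could split reads between the pair if their sequences are near-identical, so the level of IGFL1 is uncertain to that extent; with both genes summed the log2 fold change was -0.63 and still called in edgeR. IGFL2-AS1 overlaps IGFL1P1 on the other strand and was at 163 ± 21.6 CPM in si-eIF4E+M5 and 162 ± 22.9 CPM in si-NC+M5 (not called, adjusted p = 0.95 in edgeR). A further gene, AC006262 (ENSG00000269745), overlaps IGFL1 itself on the other strand, at a mean of 0 counts in si-eIF4E+M5 and 4 in si-NC+M5. IGFL4 was at 5.42, 2.91 and 3.89 CPM in si-eIF4E+M5, against 2.83, 1.67 and 1.69 CPM in si-NC+M5. It rose by a log2 fold change of 0.98 ± 0.28 (adjusted p = 0.043 in edgeR), opposite in sign to IGFL1, but the groups were separated by a narrow margin and the call was lost in 7 of 14 other settings, without si-eIF4E+M5 replicate 1 or 3, without si-NC+M5 replicate 2 or 3, on both log2(FPKM) scales and with no filter on low counts. The receptor gene IGFLR1 was at 2.86, 2.50 and 2.01 CPM in si-eIF4E+M5, against 1.69, 2.02 and 1.82 CPM in si-NC+M5, with overlap and no call (log2 fold change 0.42 ± 0.21, adjusted p = 0.24 in edgeR). IGFL2 had 0 counts in each si-eIF4E+M5 library and 0, 0 and 9 counts in si-NC+M5.

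**Figure D4:**
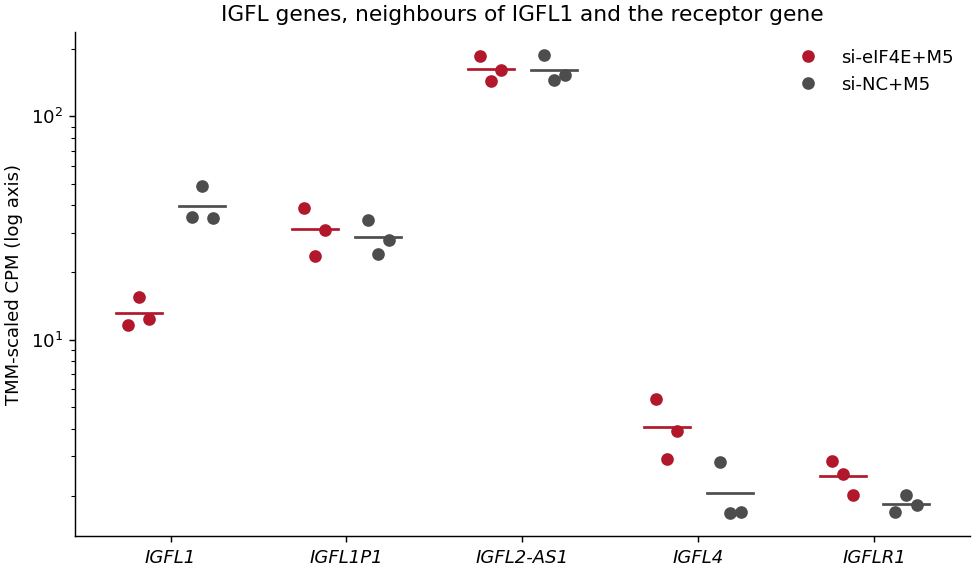
TMM-scaled CPM (vertical log axis) of IGFL1, its pseudogene IGFL1P1, IGFL2-AS1, IGFL4 and the receptor gene IGFLR1 in each library; red points are si-eIF4E+M5, grey points si-NC+M5 and bars their means. IGFL1 separates the groups at 11.7 to 15.5 CPM against 34.9 to 48.8 CPM, while IGFL1P1 and IGFL2-AS1 overlap.

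The 4 genes that fell differ in the sequence just before their start, which is shown because they moved in the same direction. RefSeq promoter sequences (GRCh38.p14) matched 9 of the 10 genes; those of the 4 are given below for the 250 bases before the start, 5′ to 3′ on the strand of the gene, with capitals for the GC box GGGCGG on either strand, the site read by SP1-type factors. They cover chr19:46229492-46229741 (plus strand) for IGFL1, chr7:45921273-45921522 (minus strand) for IGFBP3, chr13:109786584-109786833 (minus strand) for IRS2 and chr2:226799821-226800070 (minus strand) for IRS1.
IGFL1: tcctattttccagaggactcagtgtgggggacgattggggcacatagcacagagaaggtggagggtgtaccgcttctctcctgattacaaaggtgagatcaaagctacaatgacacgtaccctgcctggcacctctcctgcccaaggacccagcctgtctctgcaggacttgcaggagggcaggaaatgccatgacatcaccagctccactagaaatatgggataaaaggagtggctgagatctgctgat
IGFBP3: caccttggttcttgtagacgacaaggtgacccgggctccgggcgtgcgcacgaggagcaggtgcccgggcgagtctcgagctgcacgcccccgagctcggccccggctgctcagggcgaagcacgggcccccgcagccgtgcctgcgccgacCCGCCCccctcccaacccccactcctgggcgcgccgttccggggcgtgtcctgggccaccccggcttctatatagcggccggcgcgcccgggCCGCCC
IRS2: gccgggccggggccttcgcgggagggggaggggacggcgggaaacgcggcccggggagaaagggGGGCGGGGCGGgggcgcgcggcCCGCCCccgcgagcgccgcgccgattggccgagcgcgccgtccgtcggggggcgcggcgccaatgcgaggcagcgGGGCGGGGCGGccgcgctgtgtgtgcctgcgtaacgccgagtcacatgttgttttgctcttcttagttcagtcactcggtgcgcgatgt
IRS1: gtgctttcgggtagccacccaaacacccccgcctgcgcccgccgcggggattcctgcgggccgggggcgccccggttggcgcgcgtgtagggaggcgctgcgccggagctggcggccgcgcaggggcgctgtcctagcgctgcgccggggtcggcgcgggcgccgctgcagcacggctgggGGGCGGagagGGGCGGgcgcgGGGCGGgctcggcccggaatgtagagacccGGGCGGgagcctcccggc

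The IRS2 window held 5 GC boxes, some of which overlap, IRS1 held 4, IGFBP3 held 2 and IGFL1 held 0. Of all 35116 promoter windows of the same length 42.6% held at least 1. The IGFL1 window had a GC content of 52.8%, against 76.0%, 76.4% and 80.8% for IGFBP3, IRS2 and IRS1, and the median of all windows was 58.0%. Among genes that were not called, IGF1R had 81.2%, INSR 78.4%, IGFBP4 71.6% and IGFBP6 61.2%. GC boxes were also present in genes that were not called, with 2 in IGF1R, 4 in INSR, 1 in IGFBP4 and 1 in IGFBP6. The windows of IGFBP2, which was not tested, held 1, 1 and 0. No promoter sequence matched IGFBP7. Further letters were searched on both strands, with overlapping matches counted, and none of the 4 windows held them. The AP-1 motif TGANTCA was in 6.57% of all windows. The FOXO motif GTAAACA was in 2.98%, and it was in the window of IGFBP6. The STAT motif TTCNNNGAA was in 6.57%. The core TATAAA was in 10.7%, and it was in the window of IGFBP4. Only these letters were searched, so close variants, such as TATATA in the IGFBP3 window, were not counted. A match to such letters is not a bound site.

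Genes whose pattern over the 6 libraries was most like that of a member were found by the root mean square difference of centred log2 CPM, among 11615 genes (11616 for INSR) with a mean of at least 1 FPKM. For IGFL1 they were FST, the activin antagonist follistatin, CSF2, which encodes the cytokine GM-CSF, and STC2, at 0.15, 0.17 and 0.18 on the log2 scale. For IGFBP3 they were SLC7A11, the cystine transporter, ALOXE3, an epidermal lipoxygenase, and AMOTL2, at 0.07, 0.08 and 0.08. For IRS2 they were GPAT3, EPS8L1 and NOCT (0.07, 0.08 and 0.08), and for IRS1 they were SHC1, LRP5 and SLC39A8 (0.02, 0.03 and 0.03). IGF1R was nearest to CTBS, WDR83OS and CPNE8, all at 0.02 on this scale, and INSR to TMEM192, GRPEL2 and FKBP15, also at 0.02. IGFBP4 was nearest to SOCS6, ZNRF1 and PHLPP1, IGFBP6 to MRPL49, MT-ND2 and PIGT, and IGFBP7 to UTP23, CCDC82 and PRKAB2. Such likeness over 6 libraries is a description of these libraries.

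Of the ligand genes, IGF2 was hardly detected. IGF2 had 0 counts in each si-eIF4E+M5 library and 0, 0 and 8 counts in si-NC+M5, and IGF1, INS, IRS4, IGFBP1, IGFBPL1 and IGFL3 were not analysed here. IGFBP5, which lies beside IGFBP2 on chromosome 2, had 0 counts in each si-eIF4E+M5 library and 7, 8 and 8 in si-NC+M5. INSRR, encoding an insulin receptor relative, had 3, 0 and 0 counts in si-eIF4E+M5 and 0, 12 and 0 in si-NC+M5, and IGFALS, the partner of IGFBP3 in blood, had 12, 2 and 2 against 12, 0 and 10. The scavenging receptor gene IGF2R, which removes IGF-II, was abundant at 131.5, 143 and 181 CPM in si-eIF4E+M5, against 149.9, 195 and 187 CPM in si-NC+M5, with overlap and no call (log2 fold change -0.22 ± 0.13, 95% interval -0.50 to 0.06, adjusted p = 0.29 in edgeR). Of the 14 family genes outside the 10, 3 were tested, and 1 rose (IGFL4) and 0 fell in edgeR. That is 33.3% called, against 15.8% of all tested genes. At an unadjusted p under 0.05 the counts were 1 and 0, and DESeq2 also called 1 and 0. Shares of all tested genes at these settings are not given, and nothing is read from the counts.

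Genes that act on the binding proteins included both directions. Of 6 tested genes for IGFBP proteases and their inhibitors 3 fell and 1 rose, 66.7% called against 15.8% of all tested genes. Their median log2 fold change was -0.57, against -0.01 over all tested genes. STC2, encoding stanniocalcin 2, an inhibitor of PAPP-A, was at 35.3, 41.9 and 40.2 CPM in si-eIF4E+M5, against 95.3, 107.7 and 80.3 CPM in si-NC+M5 (log2 fold change -1.27 ± 0.11, adjusted p = 0.00015 in edgeR). ADAMTS1, a secreted matrix protease, was at 2.44, 2.76 and 2.91 CPM in si-eIF4E+M5, against 6.44, 10.4 and 9.30 CPM in si-NC+M5 (-1.69 ± 0.19, adjusted p = 0.00059 in edgeR). Both kept the groups well apart. MMP7, a matrix metalloproteinase that can cut IGF binding proteins, rose to 68.9 ± 0.966 CPM in si-eIF4E+M5, against 53.2 ± 5.76 CPM in si-NC+M5 (0.37 ± 0.08, adjusted p = 0.010 in edgeR). The RNA-binding protein genes IGF2BP2 and IGF2BP3, named for the IGF2 messenger RNA, both fell, by 0.33 and 0.24 on the log2 scale (adjusted p = 0.0050 and 0.045 in edgeR); the second call was lost in 10 of 15 other settings, with median ratio and upper quartile scaling among them.

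Of 21 tested adaptors and receptor regulators 3 fell and 1 rose (19.0% called, against 15.8% of all tested genes), with a median of -0.16. SHC1, which links the receptors to RAS, was at 142.5, 143.7 and 156 CPM in si-eIF4E+M5, against 183, 196 and 183 CPM in si-NC+M5 (-0.34 ± 0.06, adjusted p = 0.0046 in edgeR), a change of the same size as that of IRS1. NEDD4, a ubiquitin ligase that acts on IGF1R, fell to 75.9 ± 5.0 CPM in si-eIF4E+M5, against 101 ± 4.32 CPM in si-NC+M5 (-0.42 ± 0.07, adjusted p = 0.0025 in edgeR). MDM2, the p53 ubiquitin ligase (-0.29 ± 0.09, adjusted p = 0.046 in edgeR), fell and SH2B1, an adaptor that enhances insulin receptor signalling (0.25 ± 0.07, adjusted p = 0.035 in edgeR), rose, but their calls were lost in 10 of 14 and 8 of 15 other settings, the fits without si-eIF4E+M5 replicate 1, 2 or 3 or without si-NC+M5 replicate 2 or 3 included.

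Downstream, the PI3K-AKT and mTOR branches were mixed around a median near 0. Of 23 tested PI3K-AKT genes 2 rose and 3 fell (median 0.0033), 21.7% called against 15.8% of all tested genes. PIK3R2, not called, was at 302, 145 and 1.65 CPM in si-eIF4E+M5, against 186, 217 and 1.52 CPM in si-NC+M5. It was far lower in replicate 3 of both groups, so its log2 fold change of 0.15 ± 1.37 is not informative. The cause was not tested. PIK3R3, a regulatory subunit of PI3-kinase, was at 55.0, 56.2 and 72.3 CPM in si-eIF4E+M5, against 31.8, 27.0 and 40.0 CPM in si-NC+M5 (0.89 ± 0.15, adjusted p = 0.0030 in edgeR), and PIK3IP1, an inhibitor of PI3-kinase, also rose (0.38 ± 0.06, adjusted p = 0.0017 in edgeR). INPP4B, a phosphatase that removes a PI3-kinase product, fell to 130 ± 1.91 CPM in si-eIF4E+M5, against 183 ± 5.78 CPM in si-NC+M5 (-0.49 ± 0.05, adjusted p = 0.00045 in edgeR), and GSK3B, a kinase that AKT inhibits, fell by 0.25 on the log2 scale (adjusted p = 0.028 in edgeR, lost in 6 of 15 other settings, with 5 of the 6 libraries left out in turn among them). Of 23 tested mTOR genes 2 rose and 3 fell (median 0.0034), also 21.7% called. SESN2, a stress-induced brake on mTORC1, fell by 0.64 on the log2 scale (adjusted p = 0.0044 in edgeR), and EIF4EBP1, which encodes the eIF4E-binding protein 4E-BP1, fell by 0.45 (adjusted p = 0.0038 in edgeR). RRAGA, a GTPase that recruits mTORC1 (0.33 ± 0.08), and EIF4EBP2 (0.22 ± 0.06) rose (adjusted p = 0.025 and 0.022 in edgeR), and RICTOR, the defining subunit of mTORC2, fell (-0.41 ± 0.11, adjusted p = 0.035 in edgeR). The calls of RRAGA, EIF4EBP2 and RICTOR were lost in 5 of 15, 4 of 15 and 8 of 14 other settings, RICTOR with upper quartile scaling among them.

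FOXO factors activate IRS2 and INSR when insulin signalling is low, so other FOXO-responsive genes were looked at beside them. Of 15 tested ones, without IRS2 and INSR, 4 rose and 4 fell, with a median of -0.02. The share called was 53.3%, against 15.8% of all tested genes. BCL2L11, the pro-apoptotic factor BIM, was at 32.9, 32.1 and 40.3 CPM in si-eIF4E+M5, against 22.1, 23.8 and 24.3 CPM in si-NC+M5 (0.58 ± 0.10, adjusted p = 0.0034 in edgeR), and the repressor BCL6 rose by 0.45 ± 0.08 (adjusted p = 0.0037 in edgeR). GADD45A, which p53 and stress factors also induce, was at 30.4, 30.2 and 24.7 CPM in si-eIF4E+M5, against 68.7, 70.2 and 61.4 CPM in si-NC+M5 (-1.23 ± 0.09, adjusted p = 8.5e-05 in edgeR), and the pseudokinase gene TRIB1 fell by 0.36 on the log2 scale (adjusted p = 0.0079 in edgeR). The list thus held genes that moved in both directions, with IRS2 and INSR on the lower side. Over all lists, counting each gene once, 10 of 89 tested genes outside the 10 rose and 17 fell. That is 30.3% called, against 15.8% of all tested genes. Nothing is read from the shares of these lists, since the lists were chosen with earlier results of these data known.

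**Figure D5:**
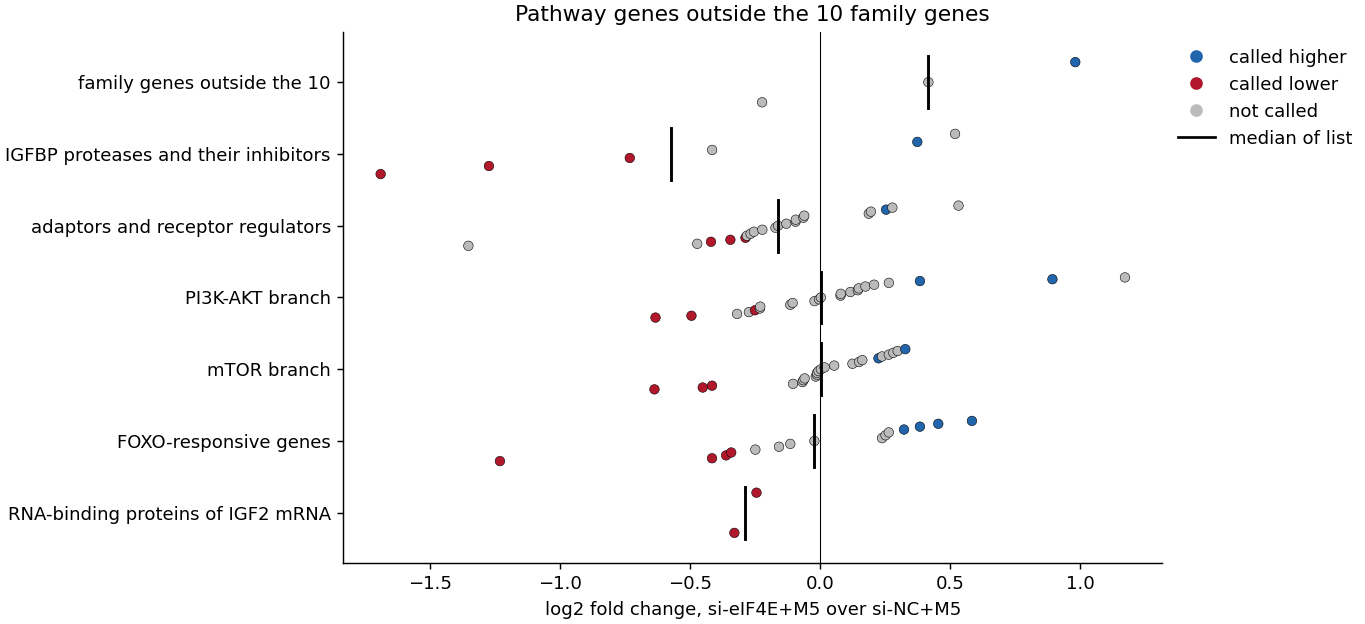
Log2 fold change between groups, positive where si-eIF4E+M5 is higher (horizontal axis), for each tested gene of 7 pathway lists, without the 10 family genes; blue is called higher, red called lower, grey not called, and the bar is the median of the list. Calls lie on both sides of 0 in 5 of the lists, and the PI3K-AKT and mTOR medians are close to 0.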

How the data were processed

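Total RNA of 6 HaCaT samples was sequenced. The authors deposited raw counts and FPKM for each gene and library. The submitters' processing notes name cutadapt 1.9, FastQC and the build GRCh38. The aligner, the counter, the annotation and any use of strand: not given in the sources used here. FPKM served for levels and ratios between genes, their shares and marker sums in each group, IRS2 per library, FPKM minima and the limma alternatives.

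The counts of all genes were tested with edgeR 4.0.16 under R 4.3.3 (low counts removed by filterByExpr at a minimum of 10 counts, 18022 genes kept, TMM scaling, quasi-likelihood fit, two-sided, Benjamini-Hochberg over all tested genes, threshold 0.05), and the steps were tested on simulated data. In the simulated data the fit called 6%, 48%, 58% and 90% of changes of 1.25, 1.5, 2 and 4 fold. Each size was planted in 50 genes. A gene that was not called can thus still differ, at times by 2 or 4 fold. SE and 95% intervals come from the fit to the real counts. Alternatives used DESeq2 1.42.0, limma 3.58.1 on log2(FPKM + 1) or log2(FPKM + 0.1), other scalings and filters, a robust spread, a replicate block and each library left out. Promoters come from RefSeq. Tables and figures were made with pandas 2.3.3 and matplotlib 3.10.9.

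The genes, lists and tests were chosen with earlier results of these data known. Named outside the 10 are the listed family genes with a row, up to 3 called genes per direction and list with the largest change and at least 1 FPKM in the higher group, and the 3 genes nearest in pattern to each of the 10. PIK3R2 is named for its low level in replicate 3 of both groups. Limits of counts cover counting error only. Depth was 71044961 to 74246501 counts per sample.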

Additional observations from a re-analysis of the deposited data

How the results depend on the processing

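Directions held for the 9 tested family genes and for EIF4E in every alternative run that tested them. The falls of IGFL1, IGFBP3 and IRS2 kept their calls in each run that tested them. EIF4E stayed called, at -1.35 to -1.17 with 1 library left out. IGF1R was called in 9 of 15 alternatives and IRS1 in 9 of 14, so the family count is 1 higher and 4 lower in DESeq2, with median ratio or upper quartile scaling, with a robust spread and with the replicate block. It was 1 higher and 2 lower when genes under a mean of 5 FPKM were dropped, where IRS1, IRS2, INSR, IGFBP4 and EIF4E were not tested. On log2(FPKM + 1) and on log2(FPKM + 0.1) it was 1 higher and 3 lower, with IRS1 not called. With 1 library left out it was 0 to 1 higher and 3 to 4 lower. Over all tested genes, the alternatives that kept every library called 801 to 1774 higher and 1017 to 1828 lower. Nothing is read from the family counts.

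Of all genes, 801 were higher with no filter on low counts, against 1340; with 1 library left out 724 to 1168 were higher and 874 to 1191 lower. The count of higher adaptors was 2 in DESeq2, with upper quartile scaling, at the same FPKM minimum and with a robust spread, and 0 with no filter on low counts (0 to 1 with a library left out). The call of IGFL4, the 1 higher family gene outside the 10, fell to 0 with no filter, on both log2(FPKM) scales and at the FPKM minimum, where it was not tested (0 to 1 with a library left out). Lower FOXO-responsive genes numbered 2 with upper quartile scaling, no filter, the FPKM minimum and both log2(FPKM) scales, and 2 to 4 with a library left out. No filter gave 1 higher mTOR gene and 1 lower PI3K-AKT gene, DESeq2 gave 4 higher PI3K-AKT genes, and the FPKM minimum gave 1 lower protease gene. Lower IGF2BP genes numbered 1 with median ratio or upper quartile scaling, no filter and both log2(FPKM) scales, and 1 to 2 with a library left out. Left-out libraries gave 0 to 2 higher mTOR genes, 1 to 4 lower PI3K-AKT genes and 2 to 3 lower adaptors. The cause was not tested. The sign of IGFL1P1 turned without si-eIF4E+M5 replicate 1, and its fold change ranged over -0.070 to 0.28 with a library left out; that of IGFL2-AS1 turned without si-eIF4E+M5 replicate 1 and si-NC+M5 replicate 2 or 3, over -0.082 to 0.14. Summing IGFL1 with IGFL1P1, chosen after seeing the data, gave -0.63.

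The main fit did not use the replicate numbers as a pairing. Same-numbered deviations correlated at 0.125, 0.0918 and 0.193, against -0.158 to 0.0284 for unlike numbers. Each sample thus correlated best with its own number, and PIK3R2 was far lower in replicate 3 of both groups. Whether same-numbered samples share a batch was not tested. The replicate block gave 1586 higher and 1828 lower genes, 1 higher family gene, and 2 higher and 6 lower adaptors. Small changes are limited by 3 samples a group.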
